A study of Homo sapiens with 6 samples.

Results

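Of 9 transcription factor genes of the adrenal cortex, GATA6 was the one called by the test on group, and it fell by 0.53 on the log2 scale in the H295R-PM-Ptc+-labelled libraries, a call lost in 5 of the 6 fits that leave out a library. With the replicate number as a block, NR4A1 and NR4A3 were called lower too. The group names themselves are in doubt, as set out before the results. The 9 genes are NR5A1, NR0B1, GATA4, GATA6, NR4A1, NR4A2, NR4A3, WT1 and TCF21, chosen by name from the 57342 gene names of the count table. RNA was sequenced from 6 libraries of H295R, an established human adrenocortical carcinoma line, of which 3 are labelled as parental H295R cells and 3 as the Ptch1 positive subpopulation, here H295R-PM-Ptc+. Both were grown in the same medium without treatment, and the second was obtained by sorting parental cells that carried the Hedgehog receptor Ptch1 at the plasma membrane and expanding them. The sources do not say whether the sorted cells are a clone or whether replicates are separate cultures, so p-values measure only the spread between these libraries. Totals ran from 23264403 to 25813247 counted fragments per library. In bulk RNA, fewer cells with a transcript and less of it per cell cannot be told apart.

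NR5A1, also called SF-1, is the nuclear receptor on which adrenal and gonadal development and the genes of steroid synthesis depend, and NR0B1, also called DAX1, is a related receptor without a DNA-binding domain that acts mainly as its repressor. GATA4 and GATA6 are zinc finger factors that act with NR5A1, GATA6 being the form of the postnatal adrenal cortex and GATA4 that of the gonads and the fetal adrenal. NR4A1, NR4A2 and NR4A3 are orphan receptors that ACTH and angiotensin II induce within minutes to hours and that bind promoters of steroidogenic genes. WT1 marks the adrenogonadal primordium and TCF21 the mesenchymal cells of the adrenal capsule.

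The group names need a caution before any direction is read. PTCH1, for whose protein one group was sorted, was lower in the H295R-PM-Ptc+-labelled libraries (12.2 ± 2.19 against 21.3 ± 2.56 CPM, SD, n = 3 each; -0.81, log2; adjusted p = 0.0207), a call lost in 3 of the 6 fits that leave out a library. All 6 normalized columns of a supplementary table of the study are scaled copies of the deposited column with the same replicate code and the other group name. Under that other naming PTCH1 would be higher in the sorted cells. The counts alone do not settle which naming holds, so libraries are called here by their deposited labels, and every direction turns over if the other naming is right. In all that follows, higher, rose, lower and fell describe the H295R-PM-Ptc+-labelled libraries against the H295R-labelled ones. CPM are counts per 1000000 after scaling by TMM, a trimmed mean of the ratios between libraries.

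Promoter sequence is shown for the most abundant factor, for the one called on group and for the NR4A members that fell with the replicate block described later. RefSeq windows (GRCh38.p14) were found for 7 of the 9 genes, and each stretch is cut where the first exon of the gene in the deposited table begins. They lie at chr9:124507431-124507649 on the minus strand (NR5A1), and on the plus strand at chr18:22169339-22169442 (GATA6), chr12:52022582-52022831 (NR4A1, the more upstream of 2 windows) and chr9:99821635-99821854 (NR4A3). Capitals mark an E-box (CACGTG) in the stretch of NR5A1. In that of NR4A1 they mark the GATA factor motif AGATAA. In the NR4A3 stretch they mark the core of the cAMP response element, which is TGACG on either strand. The GATA6 stretch held no motif searched.
NR5A1: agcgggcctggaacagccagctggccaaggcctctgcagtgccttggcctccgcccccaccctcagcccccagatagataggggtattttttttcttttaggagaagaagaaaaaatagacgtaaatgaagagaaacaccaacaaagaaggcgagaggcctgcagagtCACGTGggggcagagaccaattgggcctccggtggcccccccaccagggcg
GATA6: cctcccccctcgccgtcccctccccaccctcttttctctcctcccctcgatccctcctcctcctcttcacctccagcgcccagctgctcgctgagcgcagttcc
NR4A1: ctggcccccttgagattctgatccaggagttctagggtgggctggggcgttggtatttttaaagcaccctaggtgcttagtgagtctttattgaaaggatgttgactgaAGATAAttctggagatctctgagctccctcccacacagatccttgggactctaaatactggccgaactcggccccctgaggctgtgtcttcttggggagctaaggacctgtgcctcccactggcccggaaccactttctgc
NR4A3: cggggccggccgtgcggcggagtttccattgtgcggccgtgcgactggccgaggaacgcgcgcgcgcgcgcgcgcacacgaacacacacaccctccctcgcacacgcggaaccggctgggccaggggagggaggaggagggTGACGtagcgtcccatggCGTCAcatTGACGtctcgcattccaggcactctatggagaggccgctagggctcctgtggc

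The 250 bases before each RefSeq start were searched on both strands for AAGGTCA, the core bound by nuclear receptors, and for its longer forms AAAGGTCA, the NR4A element called NBRE, and TCAAGGTCA, the site of NR5A1. The other motifs searched were AGATAA with its variant form TGATAA for GATA factors, the full cAMP response element TGACGTCA and, added once the sequences had been read, its core TGACG beside the E-box CACGTG. None of the first 3 was found in a window of the 7 genes, against 3.44%, 1.05% and 0.319% of 35116 windows, and TGACGTCA was not found either (1.65% of windows). AGATAA was found in the upstream NR4A1 window and in that of TCF21 (9.17% of windows), and TGATAA in none (6.66%). The NR4A3 window held 4 copies of TGACG, 3 of them in the stretch shown, and 83 windows, or 0.236%, held at least as many, while 21.2% held any. A WT1 window held 1. CACGTG in the NR5A1 window was found in 6.34% of windows. Nothing in these libraries measured binding at any of these letters.

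Of the 9 genes, 7 had enough counts for the test (edgeR's quasi-likelihood test, with Benjamini-Hochberg adjustment over 16710 genes), while WT1 and TCF21 did not. With an adjusted p under 0.05, 1 of the 7 was called, beside 3.73% of all tested genes, and it was lower, beside 1.32% called lower. The estimate was below 0 in 5 of the 7 and above 0 in 2, and their median log2 fold change was -0.20 against 9.39e-04 over all tested genes. The groups did not overlap in 3 of the 7 (GATA6, NR4A1 and NR4A2), beside 23.5% of all tested genes. An unadjusted p under 0.05 was reached by 2 of the 7, beside 17.3%. Same-numbered libraries of the groups deviate together, and with the replicate number as a block 3 of the 7 were called, all lower. Of all tested genes, the block called 22.5%, made up of 10.4% called lower and 12.1% called higher.

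**Figure D1:**
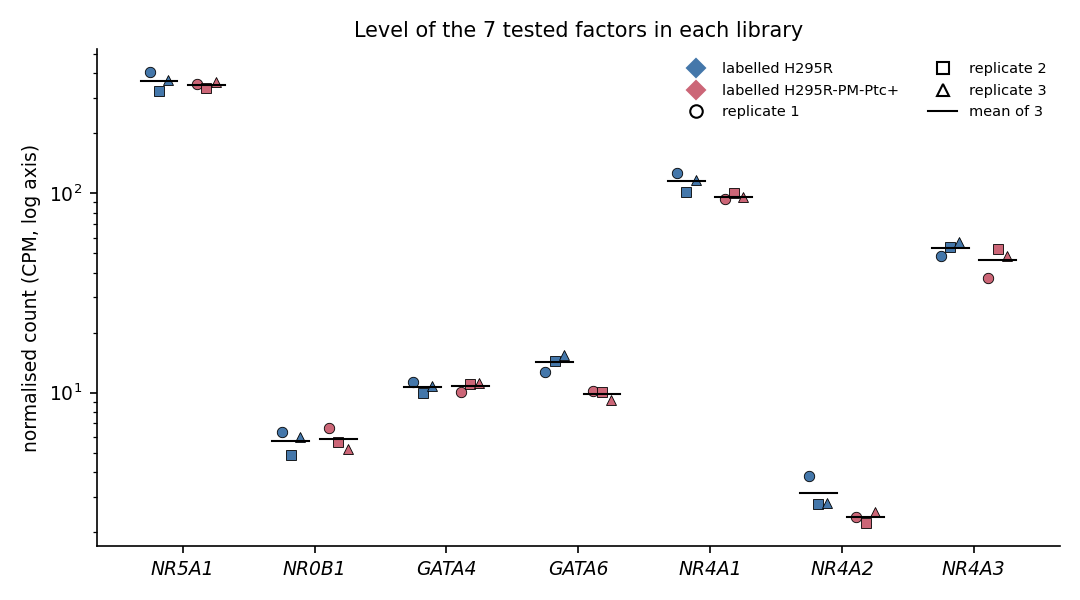
Normalised count (CPM, log axis) of the 7 tested factors in each of the 6 libraries, by deposited label (colour) and replicate (symbol), with the mean of 3 as a line. NR5A1 stands highest, between 326 and 407 CPM, and GATA6 is at 12.7 CPM or more in every H295R-labelled library and at 10.2 or less in the others.

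GATA6 lies on the plus strand of chromosome 18 from 22169443 to 22202528 (hg38). The H295R-labelled libraries held 12.7, 14.3 and 15.4 CPM for replicates 1, 2 and 3, and those labelled H295R-PM-Ptc+ 10.2, 10.1 and 9.20. All 3 of the first group lay above all 3 of the second, and the difference was smallest in the pair of replicates 1 (-0.32, log2) and largest in that of replicates 3 (-0.74). The log2 fold change was -0.53 (standard error 0.109, 95% interval -0.78 to -0.28, adjusted p = 0.0348), or 0.693-fold. Of all tested genes, 90.9% had a smaller absolute log2 fold change, and 136 genes called lower fell further.

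With the replicate block the adjusted p of GATA6 was 8.17e-04, and with replicates 2 and 3 only it was 0.00341 at a log2 fold change of -0.63. The call did not hold without H295R replicate 2 (0.112) or 3 (0.136), nor without H295R-PM-Ptc+ replicate 1 (0.0634), 2 (0.117) or 3 (0.145), though the estimate kept to -0.60 to -0.47 (log2). Over all 13 alternatives the adjusted p ran from 8.17e-04 to 0.145 and was under 0.05 in 8.

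GATA6-AS1, an antisense RNA whose gene lies on the minus strand from 22166898 to 22168968, ends before GATA6 begins. It held between 24 and 42 counts per library, at 1.47 ± 0.261 CPM in the H295R-labelled libraries and 1.18 ± 0.130 in the others (SD, n = 3 each). The difference was -0.32 (log2, 95% interval -0.81 to 0.18, adjusted p = 0.523), so a change like that of GATA6 and none at all both lie within the interval.

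GATA4, on chromosome 8 from 11676959 to 11760002, held 271, 254 and 266 counts in the H295R-labelled libraries and 257, 275 and 260 in the others. In CPM these were 10.7 ± 0.673 and 10.8 ± 0.636 (SD, n = 3 each), and the groups overlapped. The log2 fold change was 0.01, with a 95% interval from -0.23 to 0.25 (adjusted p = 0.976), an interval that lies wholly above the estimate for GATA6. Per base of exon, the level of GATA6 was 1.26, 1.61 and 1.61 times that of GATA4 in the H295R-labelled libraries and 1.14, 1.02 and 0.923 times in the others. These ratios, formed once the counts had been seen, did not overlap between the groups (exact permutation test, two-sided, p = 0.1, the smallest that 3 libraries against 3 allow). They draw on the same GATA6 counts beside a GATA4 that barely moved, so they are no separate evidence of the GATA6 difference.

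NR5A1, on the minus strand of chromosome 9 from 124481236 to 124507430, was among the most abundant transcripts, and 97.5% of tested genes had a lower mean. Its level was 407, 326 and 368 CPM in the H295R-labelled libraries and 353, 340 and 360 in the others. The group labelled H295R-PM-Ptc+ lay inside the range of the first. The log2 fold change was -0.06 (95% interval -0.28 to 0.15, adjusted p = 0.797), and -0.06 (-0.16 to 0.05) with the replicate block. The sign of so small an estimate turned without H295R replicate 1 (0.014).

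NR0B1, on the minus strand of chromosome X from 30304206 to 30309598, held between 120 and 170 counts per library. It stood at 6.32, 4.88 and 5.99 CPM in the H295R-labelled libraries and at 6.65, 5.67 and 5.18 in the others. The groups overlapped. The log2 fold change was 0.03 (95% interval -0.32 to 0.37, adjusted p = 0.955). Per base of exon there were 41.3 ± 1.67 NR5A1 reads for each of NR0B1 in the H295R-labelled libraries and 39.1 ± 5.29 in the others (SD, n = 3 each; exact permutation test, two-sided, p = 0.6).

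NR4A1, also called NUR77, lies on the plus strand of chromosome 12 from 52022832 to 52059507. It had 127, 102 and 117 CPM in the H295R-labelled libraries and 93.2, 100.1 and 95.7 in those labelled H295R-PM-Ptc+. The groups did not overlap, but replicate 2 of each came within -0.02 of the other on the log2 scale, against -0.45 for replicates 1 and -0.29 for replicates 3. The log2 fold change was -0.26 (standard error 0.0928, 95% interval -0.47 to -0.05, adjusted p = 0.191). With the replicate block it was -0.25 and passed (adjusted p = 0.00854), the only one of 13 alternatives in which it did, the others reaching up to 0.412.

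NR4A3, also called NOR1, lies on the plus strand of chromosome 9 from 99821855 to 99866891. It had 48.3, 53.6 and 56.7 CPM in the H295R-labelled libraries and 37.4, 52.7 and 48.3 in the others. In both groups replicate 1 was lowest, and the groups overlapped, while each of the 3 same-numbered pairs was below 0 (-0.37, -0.02 and -0.23, log2). The log2 fold change was -0.20 (95% interval -0.48 to 0.09, adjusted p = 0.486), and with the replicate block alone among the 13 alternatives it passed (-0.20, 95% interval -0.34 to -0.07, adjusted p = 0.0284).

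NR4A2, also called NURR1, lies on the minus strand of chromosome 2 from 156324432 to 156342348 and held only 55 to 91 counts per library. It had 3.81, 2.76 and 2.79 CPM in the H295R-labelled libraries and 2.39, 2.21 and 2.51 in the others, so that replicate 1 of the first group stood apart and the groups did not overlap. Its log2 fold change of -0.40 (95% interval -0.81 to 0.01, adjusted p = 0.309) was called in none of the 13 alternatives, where the adjusted p ran from 0.105 to 0.589. With replicates 2 and 3 only, the 3 NR4A estimates were -0.16, -0.24 and -0.13 (NR4A1, NR4A2 and NR4A3, log2), and none was called.

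Within the NR4A family the shares of all 3 members overlapped between the groups. Of the summed level per base of exon, NR4A1 made up 60.2% to 66.9%, NR4A3 29.4% to 36.9% and NR4A2 2.46% to 3.69%. Both replicate 1 libraries had the highest NR4A1 share (66.9% and 66.2%) and the lowest NR4A3 share (29.4% and 30.7%).

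**Figure D2:**
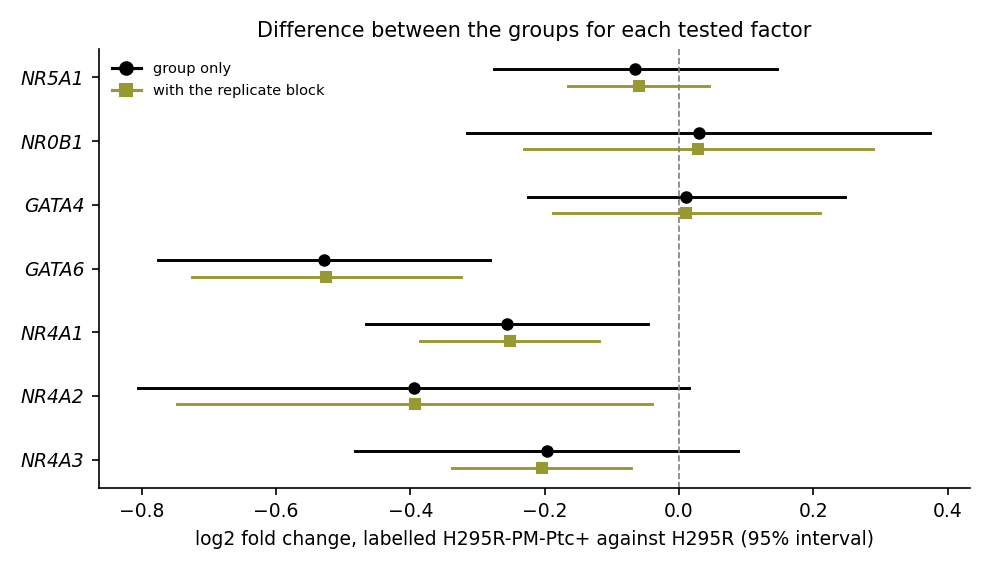
Log2 fold change (H295R-PM-Ptc+-labelled over H295R-labelled libraries) of the 7 tested factors, with 95% intervals, from the fit on group only (black circles) and with the replicate block (olive squares). The intervals of GATA6 and NR4A1 lie below 0 in both fits, those of NR4A2 and NR4A3 with the block only, and those of NR5A1, NR0B1 and GATA4 span 0.

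WT1, on chromosome 11 from 32387775 to 32435630, had 1 count in H295R-PM-Ptc+ replicate 1 and none in the other 5 libraries. TCF21, on chromosome 6 from 133889138 to 133895553, had no counts in any of the 6. A count of 0 allows up to 3 counts, or 0.117 to 0.129 CPM in these libraries, counting error only. Neither gene was detectable at this depth as a transcript of either group, and no comparison was made. WT1-AS was also at 0 in all 6 libraries.

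As CPM divided by exon length in kilobases (RPKM, computed here), NR5A1 led in both groups at 107 ± 11.9 and 103 ± 3.06 in the H295R-labelled and the other libraries (SD, n = 3 each). NR4A1 followed at 15.8 ± 1.75 and 13.2 ± 0.483, and NR4A3 at 8.37 ± 0.678 and 7.31 ± 1.25. In the H295R-labelled libraries, GATA6 came next at 3.59 ± 0.343, above NR0B1 at 2.60 ± 0.342 and GATA4 at 2.41 ± 0.151, which overlapped each other. In the other group GATA6, at 2.49 ± 0.134, overlapped both NR0B1 (2.65 ± 0.339) and GATA4 (2.43 ± 0.143). NR4A2 was lowest of the 7 in both, at 0.786 ± 0.151 and 0.597 ± 0.0372. All other neighbours in either order did not overlap.

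To show how the region around it behaved, each factor was set beside the 50 tested genes nearest to it. Around GATA6 the median log2 fold change was -0.06, GATA6 lay 0.47 below it (-0.47, log2), and 3 of the 50 neighbours were further down. Around NR4A1 the median was 0.05, with 2 of 50 further down than NR4A1, and around NR4A2 it was -0.11, with 4 of 50 further down. NR4A3 lies on the chromosome of PTCH1. Of the 50 neighbours of NR4A3, 41 were lower, beside 49.8% of all tested genes. Their median was -0.20, and NR4A3 differed from that median by less than 0.01 (-0.00125). Of the 50 neighbours of PTCH1, 36 were lower, at a median of -0.13, and PTCH1 lay further down (-0.68 from that median, log2). Whether these stretches change as regions was not tested. Around NR5A1, further along the same chromosome, 40 of 50 were lower, at a median of -0.13. Around NR0B1 and GATA4 the medians were 0.01 and 0.03.

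**Figure D3:**
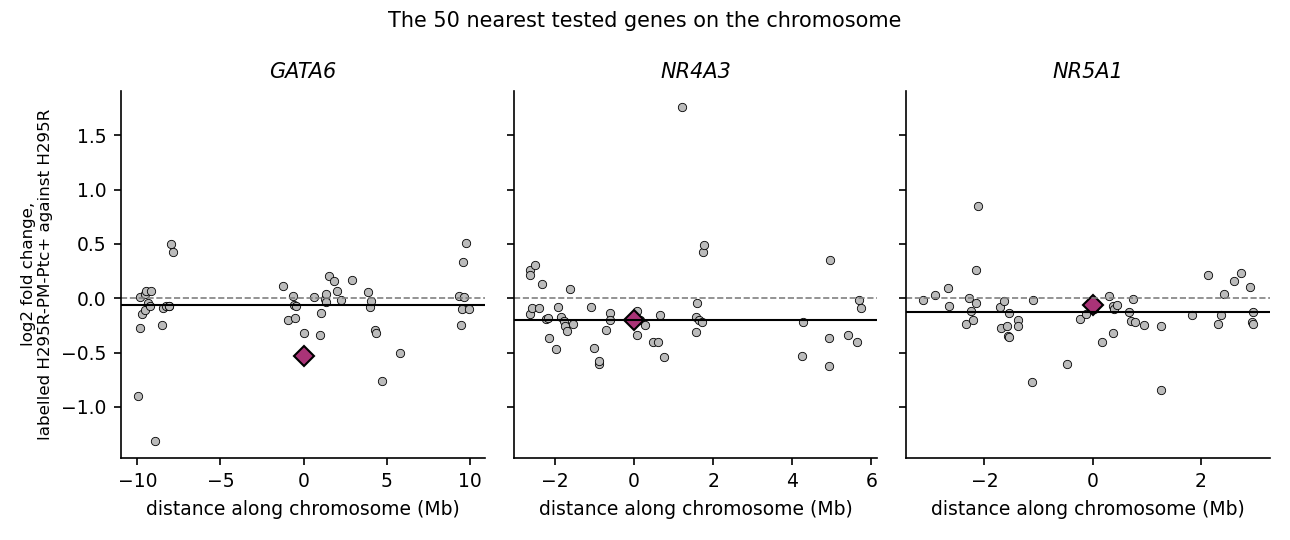
Log2 fold change of the 50 tested genes nearest to GATA6, NR4A3 and NR5A1 (grey) and of the factor itself (purple diamond), by distance along the chromosome in Mb. The black line is the median of the neighbours (-0.06, -0.20 and -0.13), and the dashed line is 0. GATA6 lies below most of its neighbours, and NR4A3 on their median.

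The genes most like a factor over the 6 libraries were taken as those with the smallest root mean square difference in log2 CPM after centring, among the other genes with a mean log2 CPM of at least 3 (10615, or 10616 for NR0B1 and NR4A2). All share the same libraries, and the likeness is a description. For GATA6, which spanned 0.74 on the log2 scale, they were C8orf88 (0.0638), IER5L (0.0645) and FOXE1 (0.0658). For NR4A3, which spanned 0.60, they were MOB1B (0.0363), HK2 (0.0391) and EPB41L4B (0.0451). For NR4A1 they were ATCAY (0.0366), THAP1 (0.0395) and NAT8L (0.0408), and for NR5A1 ORAI2 (0.0198), ATG9A (0.0204) and TAF6 (0.0214). For NR4A2 they were ENDOG, FLJ37453 and CORO2A, for NR0B1 FBXO8, C11orf68 and PHKG2, and for GATA4 SLC41A1, IRS2 and PIP4K2B.

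Of 18 genes that NR5A1 is known to bind or that carry out steroid synthesis, 17 were tested. In the H295R-PM-Ptc+-labelled libraries 3 of the 17 were called higher, beside 2.42% of all tested genes, and none was called lower. They were CYP21A2, the steroid 21-hydroxylase (12.8 ± 2.19 to 23.5 ± 1.43 CPM, SD, n = 3 each; 0.88, log2; adjusted p = 0.0067), SCARB1, the receptor for HDL cholesterol (0.63, adjusted p = 0.00345), and SULT2A1, the DHEA sulfotransferase (0.60, adjusted p = 0.0306), the last of which lost its call in 5 of the 6 fits that leave out a library. CYP21A2 has a near-identical pseudogene, so its count is uncertain. The median of the list was 0.08. STAR and POR, among the most abundant of the rest, had log2 fold changes of 0.41 and 0.08 (adjusted p = 0.346 and 0.696). With the replicate block 6 were called, 5 of them higher, beside 12.1% of all tested genes, and STAR, the cholesterol carrier into mitochondria, was among these (3.91e-06), while CYP11A1, the side chain cleavage enzyme, was lower (-0.25, 0.001).

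Of 18 other factors of adrenal and gonadal development, 13 were tested and edgeR called none, beside 3.73% of all tested genes. An unadjusted p under 0.05 was reached by 5 of the 13, beside 17.3% of all tested genes. DESeq2 called 1 of 16, beside 828 of 30966 genes. The median log2 fold change of the 13 was -0.16, with 10 estimates below 0, beside 49.8% of all tested genes. MEIS2 and NR2F2, among the most abundant, stood at -0.11 and -0.11 (adjusted p = 0.503 and 0.550). With the replicate block 6 were called, 5 lower and 1 higher, beside 10.4% and 12.1% of all tested genes. Of the 6, 4 are named here after their values were seen. The homeobox factors MEIS1 (-0.44), SIX4 (-0.35) and PKNOX1 (-0.16) and the Polycomb member CBX2 (-0.17) were lower.

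Of 8 family relatives of the 9 factors, 4 were tested. MSC, a relative of TCF21, fell from 0.986 ± 0.0331 to 0.434 ± 0.0411 CPM (SD, n = 3 each; -1.17, log2; adjusted p = 0.0347), on 9 to 26 counts per library, and it lost the call in all 6 fits that leave out a library. GATA2 and GATA3, factors of blood and other lineages, were present at 5.05 and 2.92 CPM and had log2 fold changes of 0.03 and -0.00438 (adjusted p = 0.967 and 0.994). TCF15 stood at 0.01 (adjusted p = 0.993). GATA1 had no counts, and GATA5, NR5A2 and NR0B2 held at most 6 in any library.

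Of 17 cofactors and repressors of these receptors and GATA factors, 16 were tested and PROX1, which represses NR5A1 family members, rose, beside 2.42% of all tested genes called higher (3.78 ± 0.608 to 6.46 ± 1.00 CPM, SD, n = 3 each; 0.77, log2; adjusted p = 0.0472). The call was lost in 5 of the 6 fits that leave out a library, where the adjusted p reached 0.180. NCOR1 and PIAS1, among the most abundant of the rest, stood at 0.11 and -0.06 (adjusted p = 0.775 and 0.762). The median was 0.16, and with the replicate block 7 were called, all higher, beside 12.1% of all tested genes. ZFPM1, which binds GATA factors as FOG1 and is named here after its values were seen, stood at -0.30 (log2, adjusted p = 0.282), and its relative ZFPM2 held at most 2 counts.

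The NR4A genes are immediate early genes, and 14 others of that kind were set beside them. Of 12 tested, EGR1 and ATF3 were called higher in the H295R-PM-Ptc+-labelled libraries. EGR1 rose from 14.3 ± 2.10 to 23.6 ± 2.13 CPM (SD, n = 3 each; 0.72, log2; adjusted p = 0.0167) and ATF3 from 2.85 ± 0.129 to 4.69 ± 0.699 CPM (0.72, adjusted p = 0.0426). With a library left out EGR1 lost its call in 2 of 6 fits and ATF3 in 5. These are 2 of 12, beside 2.42% of all tested genes called higher. None was called lower, and the median was 0.28. CREM, KLF10 and IER2, the most abundant of the rest, stood at -0.13, -0.18 and -0.06 (adjusted p = 0.403, 0.418 and 0.890). With the replicate block FOSB, JUN, JUNB, EGR1 and ATF3 were called higher, and KLF10 and CREM, like NR4A1 and NR4A3, lower, which is 7 of 12 beside 22.5% of all tested genes. Whether the NR4A genes differ from the others of the list was not tested.

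**Figure D4:**
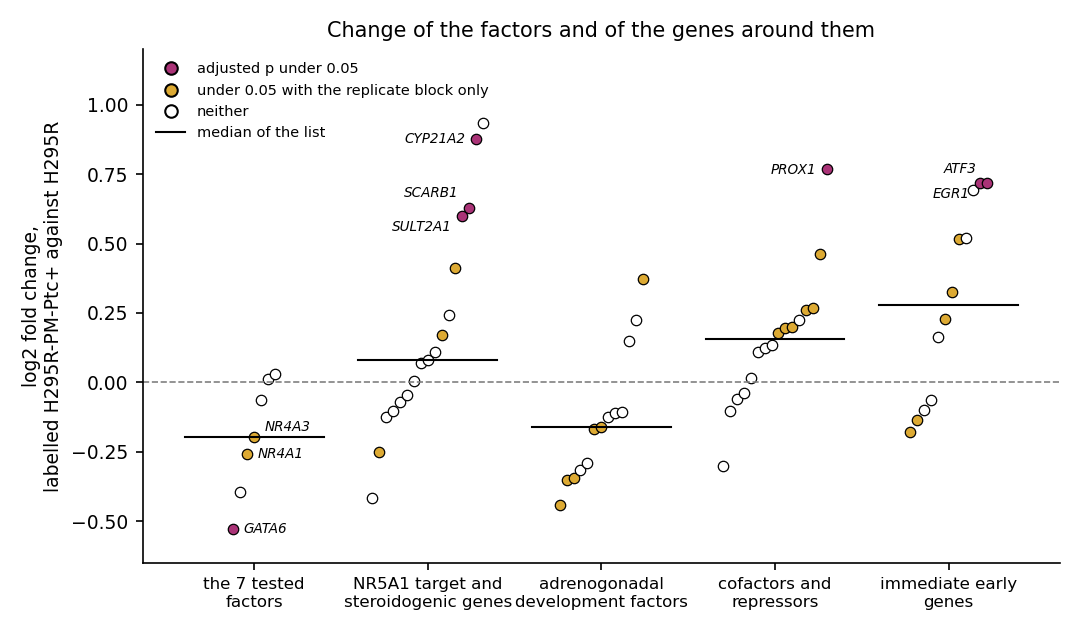
Log2 fold change of each tested gene in 5 groups of genes, with the median of each group as a line and the call as the fill. Of the factors GATA6 alone is called on group only, and NR4A1 and NR4A3 with the replicate block only, while the genes of the steroidogenic, cofactor and immediate early lists called on group lie above 0.

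Of 9 markers of the adrenal cortex 8 exceeded 1 CPM on average in these libraries, and MLANA was at 0. Among 8 markers of chromaffin cells, DBH, PNMT, PHOX2A and SLC18A1 were at 0 in all libraries, and the list summed to 65.2 to 76.7 CPM in the H295R-labelled libraries and 51.5 to 61.2 in the others, nearly all of it CHGB. Among 8 of fibroblasts and capsule, LUM and RSPO3 were at 0 and the sums were 8.90 to 10.1 and 10.7 to 13.1 CPM, mostly COL1A1, while THY1 rose from 0.690 ± 0.0751 to 1.69 ± 0.247 CPM (SD, n = 3 each; 1.29, log2; adjusted p = 0.0175). The 5 endothelial markers held at most 11 counts, summing to 0.197 to 0.335 and 0.509 to 0.648 CPM. Of 6 leukocyte markers PTPRC and CD68 were at 0, and the sums were 0.850 to 1.42 and 1.73 to 2.03 CPM. The part of these markers in the differences above was not tested.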

How the data were processed

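RNA was sequenced from 3 libraries labelled parental H295R and 3 labelled Ptch1 positive, used as 3 against 3. Per the labels and the study's methods, the authors aligned reads to hg38 with STAR 2.4.0a and ran featureCounts by gene name, multiply mapped reads entering at their primary position. The file they deposited holds unnormalized, unfiltered counts. The notes give Subread 1.5.0-p3 and a total RNA kit, while the methods give an older Subread and an mRNA kit. The strand setting the methods name is the opposite of the one usual for that kind of kit and was not checked here, so overlapping antisense genes are uncertain. Groups and replicate numbers came from the sample labels.

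Counts were filtered with filterByExpr, scaled by TMM and fitted in R 4.3.3 with edgeR 4.0.16 (quasi-likelihood F-test, group only, two-sided, Benjamini-Hochberg over all tested genes). Standard errors and 95% intervals come from that fit. The replicate number was a block in an alternative fit, since same-numbered libraries deviated together (correlations 0.497, 0.307 and 0.228 over genes, against -0.352 to 0.150 for other pairs). No source states the pairing. The other alternatives were DESeq2 1.42.0, limma-voom (limma 3.58.1), RLE size factors, other count filters and libraries left out. The fits were tested on simulated counts in which 200 genes were changed 2-fold. Of the genes called there, 6.13% were false with edgeR on group and 10.4% with the replicate block. The false share was 11.3% with DESeq2 and 5.37% with limma-voom. The simulated counts held no replicate effect, so the block was not tested where such an effect is present. RPKM use the length column of the table. The genes named are the 9 factors and, from each list, called members and the 3 most abundant others. The values of some list genes are not reported here. The 9 factors and the lists were chosen with earlier results of these data known. Promoters are RefSeq windows, and NR4A2 and GATA4 have none here.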

Additional observations from a re-analysis of the deposited data

How the results depend on the processing

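The count of 1 called factor stayed the same with DESeq2, limma-voom, RLE size factors, every gene kept, a minimum of 10 counts per library, and replicates 2 and 3 only. It was 3 with the replicate block and between 0 and 1 with a library left out, where the call of GATA6 held only without H295R replicate 1. Over all tested genes, 624 were called, against 3758 under the block, 1111 with every gene kept, 2013 with replicates 2 and 3 only, and 219 (without H295R replicate 3) to 810 (without H295R replicate 1) with a library left out. The block gave 6 NR5A1 target genes, 6 development factors, 7 cofactors and 7 immediate early genes, where the fit on group gave 3, 0, 1 and 2, and 1 relative in both. Development factors were 1 with DESeq2, 1 with no filter, 3 with replicates 2 and 3 only, and 0 to 1 with a library left out. Relatives were 0 with DESeq2, 0 with at least 10 counts, and 0 whichever library was left out. Cofactors were 2 with DESeq2, 0 with limma-voom, 2 with no filter, 0 with at least 10 counts, 4 with replicates 2 and 3 only, and 0 to 2 with a library left out. Immediate early genes were 0 to 2, and NR5A1 targets 2 to 3, with a library left out. The sign turned for NR5A1, NR0B1 and GATA4, none of them called. NR5A1 stood at 0.011 with replicates 2 and 3 only, and at -0.14 to 0.014 with a library left out. NR0B1 stood at -0.083 and -0.08 on leaving out H295R-PM-Ptc+ replicate 1 or H295R replicate 2, and at up to 0.10. GATA4 stood at -0.036 without H295R replicate 2, and at -0.00842 and -0.03 without H295R-PM-Ptc+ replicate 2 and 3. It reached 0.053 with a library left out and 0.10 with replicates 2 and 3 only. The causes of these moves were not tested. With 3 libraries a group, an exact test on 1 gene cannot go below 0.1, and at 0 to 3 counts no change in WT1 or TCF21 could be seen.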
